A study of Isostichopus badionotus with 6 samples.

Results

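In the sea cucumber Isostichopus badionotus 8 assembled loci were named as collagen, and their RNA in the body wall of captive animals is described here. The members were chosen by name, as the loci with a collagen database match in the supplementary annotation. They are 8 of the 80132 loci, and 8 of the 129776 transcripts, in the deposited table. Each of the 8 loci was counted as 1 transcript, so the count of a locus is the count of that transcript. All members come from the study's list of transcripts that differ between wild and farmed animals. A low level in captive animals was thus part of their choice and is not treated as a result. The study describes the farmed animals behind that list as born and reared in captivity. They were as many as the juveniles here and fewer than all captive animals together. The study does not say which of the samples here they were. The list thus most likely rested on the juveniles alone, and in that case the choice by itself favours adults above juveniles. Wild libraries were not analysed here.

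Body wall RNA of 6 captive animals was sequenced. By the labels, 2 were adults from an environment given as "Captivity adapted" (adult 5 and adult 6), and 4 were juveniles from an environment given as "Captivity" (juvenile 1 to juvenile 4). The design text of the series calls all 6 farmed juveniles, and the farmed animals of the study were the first generation bred from a captive brood-stock, held in tanks and fed on algae. The study's text speaks of captive animals that were bred in culture or held there after being caught, without saying which of these the adults were, so stage, adaptation, origin and body size cannot be told apart in this comparison. Nothing in the sources says that more than 1 animal was pooled in a sample.

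Collagens are secreted proteins of 3 chains wound into a triple helix, and fibril-forming collagens are the main load-bearing material of connective tissue. The body wall of sea cucumbers is mostly dermis made of such fibrils in a soft matrix, and it can stiffen or soften within a short time under nervous control, a property called mutable collagenous tissue. Collagen chains are folded in the endoplasmic reticulum, exported in vesicles and trimmed outside the cell, so their mRNAs are usually read beside those of chaperones and of the export machinery.

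The 8 loci fell into 2 groups by their database match. Loci Locus_120715, Locus_121075, Locus_121087, Locus_121203, Locus_122233 and Locus_121206 matched a collagen mRNA of the sea cucumber Apostichopus japonicus, and their assembled sequences were 137, 101, 159, 106, 106 and 113 nt long. Loci Locus_21639 and Locus_25649 matched an mRNA of the flatfish Cynoglossus semilaevis for a chain like collagen alpha-1(XI), and were 544 and 800 nt long. In vertebrates the alpha-1(XI) chain is a minor fibrillar chain of cartilage that takes part in setting fibril width. All 8 sequences are short beside a full collagen mRNA, and loci with the same match may be pieces of fewer mRNAs, which the counts cannot resolve. Locus_25649 had 5 assembled transcripts, of which 1 was counted. Transcripts of 2 other loci, Locus_904 and Locus_7363, carry the name collagen type IV alpha-3-binding protein, which is a ceramide transfer protein and not a collagen, and were not included.

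Library totals were 23771295 and 26189571 counts in the adults and 21714696 to 31742950 counts in the juveniles. The 10 most abundant transcripts took 23.3% and 34.8% of the counts in adults 5 and 6, against 16.2% to 23.7% in the juveniles. Levels are given as CPM, counts scaled to the library total and then by TMM, a method that sets most loci to equal level. The TMM factor of adult 6 was 0.491, the lowest of the 6, against 0.906 in adult 5 and 0.951 to 1.53 in the juveniles, so CPM of adult 6 lie about 2 times above those from its plain total. Levels and the order of animals are on the TMM scale unless plain totals are named, and several orders change on plain totals, as stated beside them.

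Locus_122233 was the most abundant of the 8. It had 139 and 264 CPM in adults 5 and 6, against 56.1, 52.3, 68.5 and 15.0 CPM in juveniles 1 to 4. Both adults lay above every juvenile, and juvenile 4 lay well below the other juveniles.

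Locus_121206 had 100.5 and 134.7 CPM in the adults, against 49.8, 40.5, 34.7 and 8.71 CPM in the juveniles. Again both adults lay above every juvenile, and juvenile 4 was the lowest animal. These 2 loci together held 60.4% and 69.6% of the collagen counts of the adults, against 45.0% to 68.2% in the juveniles.

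Locus_121203 was lower, with 19.4 and 21.4 CPM in the adults, against 9.39, 7.94, 9.07 and 1.77 CPM in the juveniles. The adults were close to each other on this scale, but had 17.5 and 10.5 CPM on plain totals, where adult 6 fell among the juveniles. Locus_120715 was near the bottom of the group, with 4.69 and 8.78 CPM in the adults, against 1.45, 1.84, 3.10 and 0.345 CPM in the juveniles. The value of juvenile 4 rests on 15 counts, so it carries a large counting error.

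Loci Locus_121075 and Locus_121087 had another order of animals. Locus_121075 had 21.6 and 25.7 CPM in the adults, against 4.36, 5.67, 20.6 and 5.76 CPM in the juveniles. Locus_121087 had 53.8 and 31.9 CPM in the adults, against 8.72, 10.4, 60.4 and 13.8 CPM in the juveniles. In both, juvenile 3 stood near the adults, and it was the highest of all 6 animals in Locus_121087 on either scale and in Locus_121075 on plain totals. Juvenile 4 was not the lowest animal in either locus on either scale. The lowest was juvenile 1 with TMM, while on plain totals juveniles 1 and 2 had 5.387 and 5.388 CPM in Locus_121075, and juvenile 2 was the lowest in Locus_121087.

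Of the 2 alpha-1(XI) matches, Locus_21639 had 53.9 and 82.1 CPM in the adults, against 24.3, 19.1, 30.6 and 5.62 CPM in the juveniles. Locus_25649 had 3.72 and 4.196 CPM in the adults, against 1.05, 0.969, 2.38 and 0.322 CPM in the juveniles. In both, juvenile 3 was the highest juvenile and juvenile 4 the lowest animal, on either scale. Adult 6 was above adult 5 with TMM and below it on plain totals, where Locus_21639 had 48.8 and 40.4 CPM in adults 5 and 6.

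**Figure D1:**
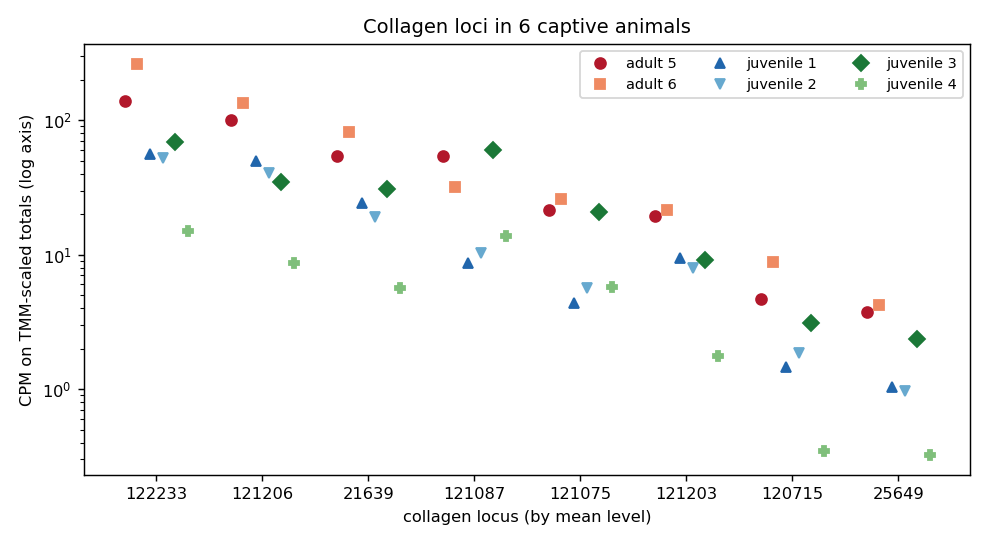
Level of each collagen locus in each animal, in CPM on TMM-scaled totals on a log axis, with loci ordered by mean level. Each point is 1 animal. Both adults lie above all 4 juveniles in 7 of the 8 loci, and juvenile 3 lies among or above the adults in Locus_121087.

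Summed over the 8 loci, the collagen level was 396.5 and 572.7 CPM in adults 5 and 6, against 155, 139, 229 and 51.3 CPM in juveniles 1 to 4. As a share of all counts, with no TMM factor, it was 0.0359% and 0.0281% in the adults, against 0.0192%, 0.0132%, 0.0287% and 0.00786% in the juveniles. On this plain scale juvenile 3 passed adult 6, so the groups overlapped. With TMM the highest sum of the juveniles was 4.47 times the lowest, and for single loci this ratio was 4.56 to 8.96. Wilson 95% intervals of the plain shares cover counting error only, and are much narrower than the gaps between juveniles: the share of juvenile 4 had an interval of 0.00754% to 0.00819%.

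Per length of assembled sequence the loci covered a wide range. Mean CPM per kilobase over the 6 animals was 935 for Locus_122233, 544 for Locus_121206, 188 for Locus_121087, 138 for Locus_121075 and 108 for Locus_121203. It was 66.1 for Locus_21639, 24.6 for Locus_120715 and 2.63 for Locus_25649. Among 21588 transcripts of 100 to 159 nt, the 6 short loci stood at percentiles 98.0 to 99.4. Among 23071 transcripts of 500 to 900 nt, Locus_21639 stood at percentile 98.7 and Locus_25649 at 85.2. Levels per kilobase of such short sequences depend on how many read pairs fit inside them, so these are given for their order only.

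Whether the collagen loci differed between adults and juveniles was tested with edgeR's quasi-likelihood test over 22451 loci with a mean of at least 1 CPM, which all 8 passed. The log2 fold change, adults over juveniles, was 2.07 for Locus_122233 (SE 0.592), 2.00 for Locus_120715 (SE 0.747) and 1.81 for Locus_121206 (SE 0.611). It was 1.77 for Locus_21639 (SE 0.600), 1.74 for Locus_25649 (SE 0.713) and 1.53 for Locus_121203 (SE 0.600). The 2 loci in which juvenile 3 stood with the adults had 1.38 for Locus_121075 (SE 0.644) and 0.88 for Locus_121087 (SE 0.811).

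None of the 8 passed an adjusted p of 0.05 in edgeR's quasi-likelihood test with Benjamini-Hochberg adjustment, and the same test called 0% of all loci. The adjusted p was 0.746 for 7 loci and 0.824 for Locus_121087. The unadjusted p was under 0.05 for 6 of the 8 loci, between 0.00944 for Locus_122233 and 0.0432 for Locus_25649, against 6.55% of all loci tested and 3.31% with a higher level in adults. All 8 fold changes were above 0, against 44.2% of all loci. The median of the 8 was 1.76, beside -0.10 over all loci. Since the loci share a match and may share an mRNA, the 8 values are not 8 separate measurements. The list that gave the loci most likely rested on the juveniles. In that case the choice of the loci also favours fold changes above 0 and adults above all juveniles. The shares of all loci given here and below are therefore no test of the collagen loci. DESeq2 called 124 loci, the exact test of edgeR 56 and limma voom 1, and no alternative called a collagen locus.

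Both adults lay above all 4 juveniles in 7 of the 8 loci, the exception being Locus_121087, beside 8.16% of all loci tested. In none of the 8 did both lie below, as they did in 9.47% of all loci. With the TMM factors of the fit to single transcripts, Locus_121075 overlapped as well and 6 of 8 were left, beside 4.28% of all loci. On plain library totals 4 of 8 were left (Locus_120715, Locus_21639, Locus_122233 and Locus_121206), beside 0.935% of all loci. A change of scaling shifts all loci of an animal alike, so it had to move the median of all loci and that of the collagen loci by a like amount. On plain totals the collagen median was 0.92 and that of all loci -0.92, a difference of 1.84, against a difference of 1.85 with TMM. Without juvenile 3 the fold change of Locus_121087 was 1.97 and that of Locus_121075 was 2.16 on the log2 scale. Without adult 5 that of Locus_121087 was 0.45. In each of these fits the adjusted p of edgeR's quasi-likelihood test stayed above 0.05, and a fit that left out 1 adult assumes that the other varied like the juveniles.

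**Figure D2:**
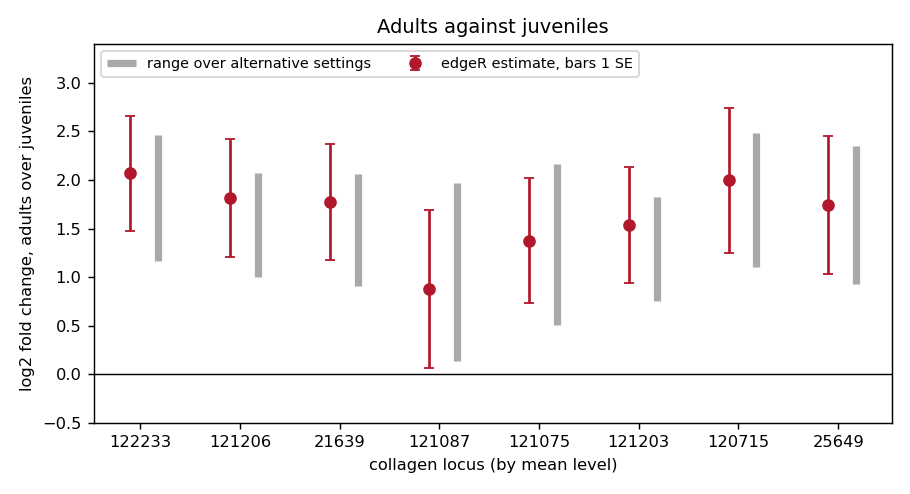
Log2 fold change of each collagen locus, adults over juveniles. Points are edgeR estimates with bars of 1 SE, and grey bars span the values under the alternative settings. All estimates lie above 0, from 0.88 for Locus_121087 to 2.07 for Locus_122233, and the grey bar of Locus_121087 comes down to 0.14.

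In the fit to single transcripts, where a transcript needed 3 CPM in each adult and in 3 or more juveniles, 6 of the 8 members were among the 9979 transcripts tested. Loci Locus_120715 and Locus_25649 did not pass that filter, and since it asks for a level in both groups, the 6 are not a sample of the 8. None of the 6 was called, with adjusted p between 0.560 and 0.819 in edgeR's quasi-likelihood test, as 0% of all transcripts were. The unadjusted p of this test was 0.0149 for Locus_122233, 0.0301 for Locus_121206 and 0.0349 for Locus_21639. It was over 0.05 for Locus_121203, Locus_121075 and Locus_121087. Of all transcripts tested, 8.30% had an unadjusted p under 0.05.

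The juveniles differed among themselves more in collagen than in most loci. The SD of log2 CPM over the 4 juveniles was 0.99 to 1.27 for the 8 loci, beside a median of 0.58 over all loci, and 13.7% to 22.1% of loci had an SD as large. Juvenile 4 was the lowest of the 6 animals in 6 of the 8 loci, whereas it was the lowest in 10.97% of all loci. On plain totals it was again the lowest in 6 of 8, beside 1.79% of all loci. Juvenile 3 was the highest juvenile in 6 of 8, beside 20.5% of all loci. These counts were made after the values had been seen.

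The make-up of the collagen counts, which needs no scaling between libraries, set juveniles 3 and 4 apart from the other animals. Loci Locus_121075 and Locus_121087 together held 19.01% and 10.1% of the collagen counts in adults 5 and 6, against 8.43%, 11.6%, 35.3% and 38.1% in juveniles 1 to 4. Wilson 95% intervals were 36.1% to 40.1% in juvenile 4 and 10.4% to 12.8% in juvenile 2. The animal with the highest collagen sum among juveniles and the one with the lowest thus shared a make-up, and the share did not follow the level.

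Locus_121206 moved the other way, with 25.3% and 23.5% in the adults, against 32.1%, 29.2%, 15.1% and 16.96% in the juveniles. Locus_122233 held 35.0% and 46.1% in the adults, against 36.2%, 37.7%, 29.9% and 29.3% in the juveniles. The 2 alpha-1(XI) matches kept a narrower share, 14.5% and 15.1% in the adults, against 16.3%, 14.5%, 14.4% and 11.6% in the juveniles. In each of these shares the adults and the juveniles overlapped.

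**Figure D3:**
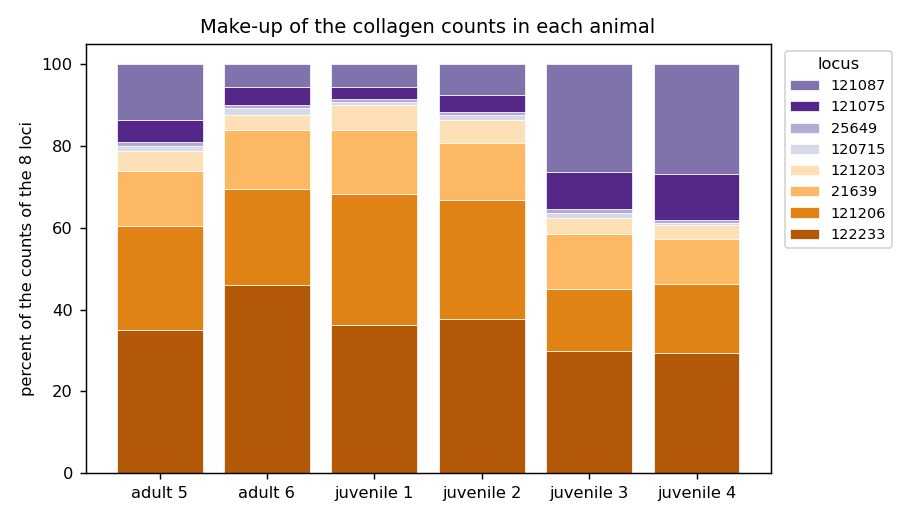
Share of each locus in the counts of the 8 collagen loci, in percent, for each animal. The 2 topmost parts are Locus_121087 and Locus_121075, which together take 35.3% and 38.1% in juveniles 3 and 4 and 8.43% to 19.01% in the other animals.

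How the loci varied together over the 6 animals was measured for all 28 pairs, on log2 CPM (prior count 2). The 8 loci were divided after their values had been seen into Locus_121075 with Locus_121087 and the other 6. Among the other 6, Pearson's r was 0.904 to 0.992 over 15 pairs. Exact permutation p-values, adjusted over the 28 pairs, were 0.00972 to 0.0233, and the smallest unadjusted p that 6 animals allow is 0.00139. The permutations mix adults with juveniles, and the loci may be pieces of fewer mRNAs. These p-values therefore describe the pairs and are no test of separate genes varying together. Spearman's rho was 0.771 to 1, with 10 of 15 pairs under an adjusted exact permutation p of 0.05. Without the 2 animals farthest from the median of the locus listed first in a pair, r was 0.581 to 0.977. The second locus had no part in which animals were left out, here and in the like values below. With each group centred on its own mean, an alternative chosen after the data were seen, r was 0.765 to 0.985 with TMM. On that scale adult 6 lay above adult 5 in each of these 6 loci. On plain totals it did so in Locus_120715 and Locus_122233 only. The centred r was not computed on plain totals, so the part of the scaling in it was not tested.

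Loci Locus_121075 and Locus_121087 had an r of 0.934 with each other (rho 0.771, exact permutation p = 0.0625, adjusted p = 0.0921, and r = 0.990 without the 2 farthest animals). The 12 pairs that join one of these 2 with one of the other 6 had r between 0.396 and 0.867 and rho between 0.0286 and 0.83. Their adjusted exact permutation p-values were 0.0802 to 0.456, and none passed 0.05. Without the 2 farthest animals r was 0.431 to 0.95 in these pairs, and with groups centred it was -0.06 to 0.69. That the r of these pairs differs from the r among the other 6 was not tested. The r of a locus with the sum of the other 7 was 0.541 for Locus_121087, 0.789 for Locus_121075 and 0.917 to 0.993 for the rest.

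The ratio of the counts of 2 loci in the same animal is free of library size and of TMM. Its SD on the log2 scale was smallest for Locus_21639 with Locus_122233, at 0.188, beside 0.0704 for counting error alone. These 2 carry different database matches. Among the other 6 loci the SD was 0.188 to 0.600, for Locus_121075 with Locus_121087 it was 0.436, and in the 12 pairs that join both sets it was 0.728 to 1.44. The split of the loci was drawn from these same values, so the gap between the ranges describes the split and is no test of it. In the low loci Locus_120715 and Locus_25649, counting error made up much of the spread, with 0.336 of an SD of 0.371 in their pair.

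**Figure D4:**
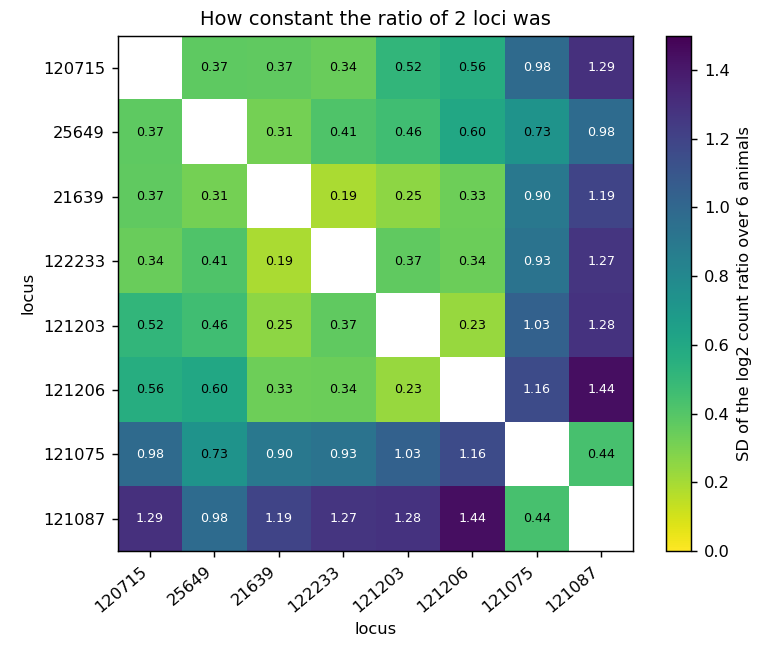
SD over 6 animals of the log2 ratio of the counts of 2 collagen loci, for every pair of loci. Low values stand for a near-constant ratio. The 15 pairs among the first 6 loci lie between 0.188 and 0.600, while pairs with Locus_121075 or Locus_121087 and one of these lie between 0.728 and 1.44.

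The transcripts most like the collagen sum in their pattern over the 6 animals were looked up by Pearson's r of log2 CPM, among 32978 other transcripts with a mean of at least 1 CPM. Their median r was -0.04, with quartiles of -0.39 and 0.32, and 0.649% had an r of at least 0.9. Names came only from the study's list of transcripts that differ between wild and farmed animals, which gave a name to 318 of the 32978. The others were not looked up elsewhere. The highest of the 318 was transcript 1 of Locus_19426, 411 nt long, with an r of 0.996. It matched an SCO-spondin mRNA of the acorn worm Saccoglossus kowalevskii. SCO-spondin is a large secreted glycoprotein, known in vertebrates from the subcommissural organ of the brain.

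The SCO-spondin match had 61.4 and 82.8 CPM in adults 5 and 6, against 20.6, 18.7, 38.6 and 6.77 CPM in juveniles 1 to 4. Its order of animals was that of the collagen sum, also on plain totals, where r was 0.995 and its groups overlapped. Its count was 0.847 to 1.26 times that of collagen Locus_21639 in all 6 animals, with an SD of the log2 ratio of 0.214. In the fit to single transcripts its log2 fold change was 1.49 (SE 0.590), with an adjusted p of 0.560 in edgeR's quasi-likelihood test, and 0.92 on plain totals. It followed the pair Locus_121075 and Locus_121087 less closely, with an r of 0.754.

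**Figure D5:**
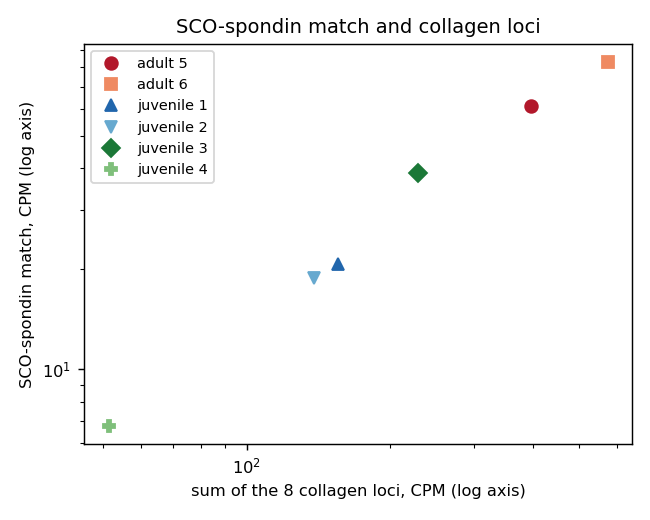
CPM of the transcript that matched SCO-spondin against CPM summed over the 8 collagen loci, both on log axes, with 1 point per animal. The points run from juvenile 4 (51.3 CPM of collagen and 6.77 CPM of SCO-spondin match) to adult 6 (572.7 and 82.8 CPM) in the same order on both axes.

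The next highest named transcripts had r near 0.90. They were Locus_133537, matched to a plant mRNA for a small-subunit ribosomal protein (r = 0.905), Locus_8628, matched to a bacterial genome (r = 0.904), and Locus_1078, transcript 24, matched to ribosomal RNA of a mite (r = 0.903). The fifth was Locus_3402, transcript 5, matched to a mRNA like that of ADAM10, a membrane metalloproteinase that sheds surface proteins (r = 0.898). It had 49.9 and 60.7 CPM in the adults, against 28.03, 30.8, 30.4 and 25.4 CPM in the juveniles. At the other end were Locus_22649, matched to the ubiquitin ligase SIAH2 (r = -0.928), Locus_8478, matched to a microsatellite of Isostichopus fuscus (r = -0.871), and Locus_13145, matched to the ubiquitin ligase herc1 (r = -0.862). On plain totals these r were lower in size: 0.718 for the ribosomal protein match, -0.027 for the bacterial match, 0.756 for the ribosomal RNA match and 0.219 for the ADAM10 match. They were -0.60 for SIAH2, -0.84 for the microsatellite and -0.64 for herc1. The likeness of the bacterial and ADAM10 matches to collagen was thus seen with TMM only.

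Of the 54 transcripts with an r of at least 0.95, 20 were shorter than 160 nt, which is 37.0%, beside 1.67% of all 32978 transcripts. Only 1 of the 54, the SCO-spondin match, had a name in the study's list of differing transcripts, the only source of names here. The 6 short collagen loci are of this length too, so likeness to the collagen sum and a short assembled sequence went together in these libraries. The part of sequence length in the likeness was not tested.

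Other transcripts of matrix and adhesion were read from a list of 10 transcripts named in the supplement. The list held transcripts 17 and 20 of the same locus matched to talin-2, both with fold changes above 0. Of the 10, 9 were tested as single transcripts. None was called by edgeR's quasi-likelihood test with Benjamini-Hochberg adjustment, while 3 had an unadjusted p under 0.05, against 8.30% of all transcripts tested. Fold changes were above 0 in 7 and below 0 in 2, and their median was 0.64, beside -0.11 over all transcripts, of which 42.5% were above 0. On plain totals, tried after the data were seen, 5 were above 0 and 4 below, with a median of 0.01 beside -0.67 over all transcripts. An unadjusted p under 0.05 in that test was then left for 1 of the 9, beside 1452 of all 9979 transcripts. It was tenascin R, one of the 3 with TMM, and its fold change was below 0 on both scales. Fold changes of the lists use the TMM factors of the transcript fit, and CPM those of the locus fit. Tenascin R, a secreted glycoprotein that modulates adhesion, had 21.4 and 17.2 CPM in the adults, against 55.6, 49.4, 23.8 and 30.9 CPM in the juveniles, a log2 fold change of -1.29 (SE 0.444, adjusted p = 0.560 in edgeR). It was the one tested member with both adults below every juvenile, also on plain totals. Transcript 17 of the locus matched to talin-2, which links integrins to actin, had 17.5 and 22.4 CPM in the adults, against 5.99, 4.12, 6.70 and 10.5 CPM in the juveniles, and overlapped between the groups on plain totals. Fibrillin-2 and tenascin C had log2 fold changes of 0.02 each, with SE of 0.871 and 1.23.

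The secretory pathway list held 12 transcripts, all tested. All 12 had fold changes above 0, none was called by edgeR's quasi-likelihood test and none had an unadjusted p under 0.05. Their median log2 fold change was 0.27, under the 1.76 of the collagen loci, and 42.5% of all transcripts were above 0. The direction depended on the scaling: on plain totals 1 of the 12 was above 0, beside 14.8% of all transcripts, and the median was -0.26, beside -0.67. No direction is given for this list. GRP78, the main chaperone of the endoplasmic reticulum, had 398 and 489 CPM in the adults, against 199, 512, 259 and 143 CPM in the juveniles. Calnexin, a chaperone of glycoproteins, had 238 and 327 CPM in the adults, against 107, 306, 135 and 115 CPM in the juveniles. In both, juvenile 2 reached the level of the adults, which it did not do in any collagen locus. The largest fold change of the list with TMM was 0.67 for glutamate/proline-tRNA ligase, which charges the tRNA for proline, an amino acid abundant in collagen, and Sec24C, a coat protein of export vesicles, had 0.55. The transcripts of these lists were chosen from the study's list of differing transcripts as well.

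Markers of other cells in the body wall were read beside these results, since in bulk tissue fewer cells of a type and less RNA per cell cannot be told apart. The 6 muscle transcripts summed to 2931 and 2941 CPM in the adults, against 1528, 195, 429 and 2092 CPM in the juveniles. Juvenile 4, the lowest in collagen, was the highest juvenile in the muscle sum, and the r of both sums was 0.262. The muscle sum was carried by myosin heavy chain, at 2224 and 2212 CPM in the adults, and by filamin-C. In these and in leiomodin 3, juvenile 4 was the highest juvenile. In alpha-actinin-2 and cardiac alpha actin it had 45.2 and 14.3 CPM, against 78.1 and 33.3 CPM in juvenile 2. Smoothelin like 1 was highest in juvenile 1 among the juveniles. The 5 transcripts of cilia summed to 21.5 and 18.3 CPM in the adults, against 31.6, 57.7, 24.5 and 15.6 CPM in the juveniles (r = -0.081). The 4 neural transcripts summed to 125 and 165 CPM in the adults, against 49.6, 61.4, 81.1 and 86.0 CPM in the juveniles (r = 0.634). No transcript of these 3 lists was at 0 in any animal and none was called, with 6 of 6, 1 of 5 and 2 of 4 tested. The neural sum was carried by PTPRN2-like and SoxB1, while ELAV had 1.21 and 0.932 CPM in the adults, against 5.00, 1.36, 2.38 and 5.69 CPM in the juveniles (r = -0.81), and synaptogyrin 1a had an r of -0.57. Of the single muscle transcripts, only myosin heavy chain and filamin-C had both adults above every juvenile with TMM. The other muscle transcripts overlapped, and cardiac alpha actin had a log2 fold change of -0.26 (SE 0.401). With TMM both adults were above every juvenile in the muscle and neural sums, as in the collagen sum. On plain totals these sums overlapped, as the collagen sum did: muscle had 2655 and 1445 CPM in the adults, against 3201 CPM in juvenile 4, and neural transcripts had 114 and 81.1 CPM in the adults, against 132 CPM in juvenile 4. The cilia sum was then below every juvenile in both adults, at 19.4 and 8.97 CPM, against 23.9 to 54.9 CPM. On plain totals the r with collagen was 0.024 for muscle, -0.018 for neural transcripts and -0.405 for cilia, and their part in the collagen result was not tested.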

How the data were processed

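Per the labels and the study's methods, poly(A) RNA libraries were made with a stranded kit, read as paired ends and mapped by the authors with HISAT2, whose version no source stated, to a transcriptome assembled from wild animals. The deposited table holds raw counts of uniquely matching reads per transcript, 1 column per animal, and the authors used edgeR 3.20.9 afterwards. No genome, sequence or wild library was used here. Sequences shorter than a read pair leave little room for a unique match, which can lower the counts of the short loci. By the read length that the study gives for farmed animals, all of the short loci but Locus_121087 are shorter than a single read. For wild animals the study gives shorter reads.

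Tests were run in edgeR 4.0.16, DESeq2 1.42.0 and limma 3.58.1 (R 4.3.3), and correlations in Python 3.11.15 with scipy 1.17.1. Counts were summed per locus, loci with a mean of at least 1 CPM were kept, and adults were tested against juveniles without covariates (edgeR quasi-likelihood, TMM, Benjamini-Hochberg, threshold 0.05). SE is the fold change divided by the square root of F. Single transcripts needed 3 CPM in at least 3 juveniles and both adults. The scripts were tested on simulated data. Replicates are single animals.

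All 8 collagen loci, the listed transcripts and the 5 highest and 3 lowest named transcripts by r were named by rule. The members and lists were chosen with earlier results of these data known. Levels were first computed with the TMM factors of the transcript fit and moved to those of the locus fit, the scale of the locus test, after the first output had been seen; both are given. The division of the loci, their shares, the order of animals, the comparisons of spread and length, and the values on plain totals for lists and named transcripts were also added after values had been seen.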

Additional observations from a re-analysis of the deposited data

Results flagged for a closer look

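In 2 collagen loci, juvenile 3 lay far above the other 3 juveniles. The gap to the next juvenile was 0.914 of the whole range of the 4 for Locus_121075 (20.6 CPM in juvenile 3, against 4.36 to 5.76 CPM in the other juveniles). It was 0.902 of the range for Locus_121087 (60.4 CPM, against 8.72 to 13.8 CPM). Both pass Dixon's critical value for 4 samples at 95%, which normally distributed values pass in about 1 of 20 groups. The ratio was taken on unlogged CPM with TMM alone. It was not computed on log2 CPM, where a high value stands out less, or on plain totals, so it holds for that scale only. The 8 loci and their sum were looked at, and both loci are those that stood apart in their pairs. Juvenile 3 and juvenile 4 had a like share of these 2 loci in their collagen counts, 35.3% and 38.1%, although juvenile 4 was not far from the other juveniles in their level.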

How the results depend on the processing

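All 118 values of the 8 loci under the alternatives kept a positive fold change and none was called, with log2 fold changes from 0.14 (Locus_121087, library totals alone) to 2.48 (Locus_120715, without juvenile 3) and adjusted p from 0.111 to 0.999 in the tools run. The number of transcripts called was 7 without a filter, 190 with DESeq2 and 11 with the exact test of edgeR, against 0 with edgeR's quasi-likelihood test, which gave 828 at an unadjusted p under 0.05. The number of loci called was 12 without a filter, 124 with DESeq2, 56 with the exact test and 1 with limma voom, against 0 with edgeR's quasi-likelihood test, which gave 1470 at an unadjusted p under 0.05. Leaving out any 1 animal called 0 in either table. The unadjusted count of transcripts was 1452 with library totals, 6507 without a filter, 2188 with the other filter, 1695 with DESeq2 and 160 to 1650 on leaving out an animal, lowest without adult 6 and highest without juvenile 2. The cause of these shifts was not tested. The median collagen fold change was 0.92 with library totals, 1.48 with the other filter (6 loci) and 2.03 with limma voom, against 1.76, and 1.44 to 2.11 on leaving out an animal. The median r of the 28 pairs was 0.886 with library totals, 0.863 with groups centred and 0.892 to 0.964 on leaving out an animal, against 0.936. The count of loci with both adults above all juveniles was 6 with the transcript factors and 4 with library totals, against 7, both tried after the data were seen. The collagen share without the loci of the 10 most abundant transcripts averaged 0.0495% in adults and 0.0230% in juveniles, against 0.0320% and 0.0172% of all counts. No paired analysis was possible because the animals carry numbers 1 to 6 and the groups share none.

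With 2 adults, 1 of them with an extreme scaling factor, the fold changes rest on few animals. Locus_25649 had 14 to 89 counts and Locus_120715 had 15 to 116, so ratios between them are imprecise. p-values measure the spread between these animals only. Short matches, shared names and a list chosen for low captive level limit what the 8 loci can say about collagen as a whole.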

Other observations

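The pattern of loci Locus_121075 and Locus_121087 was set against all other transcripts after their values had been seen. The named transcript most like their sum was Locus_92067, 145 nt long, which matched the mitochondrial 16S ribosomal RNA gene of Isostichopus badionotus (r = 0.965). It had 125.7 and 91.3 CPM in adults 5 and 6, against 4.87, 11.6, 74.8 and 18.3 CPM in juveniles 1 to 4, so juvenile 3 stood near the adults here too. In all, 41 of 32978 transcripts had an r at least as high, and the r is given as a description. The next named transcripts were Locus_12981, matched to a signal peptide peptidase (r = 0.935), a protease of the endoplasmic reticulum membrane, and Locus_8023, matched to an inorganic pyrophosphatase (r = 0.920).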
